A study of Mus musculus with 6 samples.

Results

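The RNA of 10 genes of Hedgehog and Wnt signalling was compared between adrenal glands of wild-type and Armc5(-/-) mice. These were Shh, Gli1, Ptch1, Rspo3, Wnt4, Znrf3, Axin2, Lgr5, Lef1 and Apcdd1, taken by name from the deposited table. Each of the 10 had a locus of its own among the 53103 loci with a gene name and the 59699 loci in all. The study sequenced total RNA, depleted of rRNA, from whole adrenal glands of female mice, 30 weeks old, of a 129 sv X CD1 background. There were 3 wild-type (WT) samples and 3 samples with the genotype Armc5(-/-), called KO. Which part of the gene was deleted, and whether each sample came from a separate animal, is not stated in the labels, so any p-value speaks only of the spread among these 6 samples.

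In the adrenal gland, cells under the capsule that belong to the zona glomerulosa secrete Sonic hedgehog, and cells of the surrounding capsule receive it. Hedgehog binds the receptor Patched 1, which frees Smoothened and lets GLI factors act, and Ptch1 and Gli1 are themselves targets of the pathway. The capsule in turn secretes R-spondin 3, which binds LGR receptors and holds back the ubiquitin ligase ZNRF3, so that Frizzled receptors stay at the cell surface and Wnt ligands such as WNT4 of the zona glomerulosa signal through beta-catenin. Axin2, Lef1, Lgr5, Znrf3 and Apcdd1 are known targets of beta-catenin, and ZNRF3, AXIN2 and APCDD1 feed back to dampen the signal.

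The libraries held 70547288 to 130573434 counts, and Armc5 was at 2233 to 3263 counts in WT and 269 to 473 in KO. The 8 measured genes of steroidogenic cell identity summed to 23360 to 38980 CPM in WT and 19880 to 21760 in KO, and none was at 0. CPM are counts scaled to a library of 1000000, after TMM scaling between libraries. Of the hepatocyte markers, 5 loci summed to 2713 CPM in KO replicate 3 and to at most 14.7 CPM in the other libraries. The part of this RNA in the results was not tested, and values without this library are given below. In whole glands fewer cells of a type and less RNA per cell cannot be told apart.

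A locus with enough counts to be tested was called when the edgeR quasi-likelihood test gave a p under 0.05 after adjustment over all 21358 such loci, and 1.84% were called. None of the 10 genes was (adjusted p from 0.103 to 0.969). Of the 10, 8 had a higher mean in KO and 2 a lower one, with log2 fold changes between -0.31 and 0.71. Their median was 0.34, against -0.0063 over all tested loci, and it was 0.17 without KO replicate 3 and 0.10 without both that library and WT replicate 1. Before adjustment, p was under 0.05 for 3 of the 10 (Lgr5, Ptch1 and Axin2), a share of 30% beside 22.2% of all tested loci. In 2 of the 10 (Lgr5 and Ptch1) the KO libraries all lay above the WT libraries, a share of 20% beside 16.3% of all tested loci. In none did the KO libraries all lie below, which 14.2% of all tested loci did. DESeq2 called Lgr5 alone of the 10 where it called 9.98% of loci, and limma-voom with sample quality weights called Lgr5 alone where it called 7.15%.

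**Figure D1:**
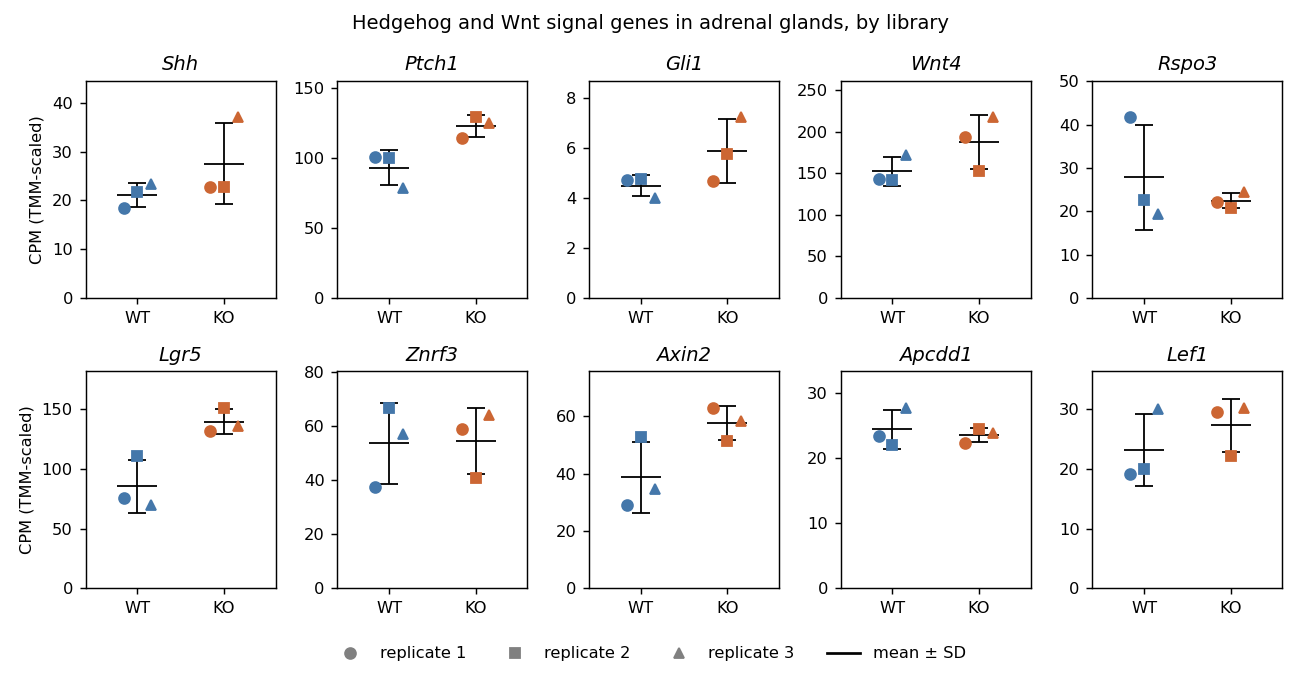
Each panel plots the CPM (TMM-scaled) of 1 gene, linear from 0, in the 3 WT and 3 KO libraries, with the mean and SD of each group as black bars. The KO libraries lie above all WT libraries for Lgr5 and Ptch1, WT replicate 1 is highest for Rspo3 at 41.7 CPM, and KO replicate 3 is highest for Shh at 37.1 CPM.

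Shh, the ligand of the pathway (GRCm38 chromosome 5, 28456815 to 28467256, minus strand), was at 18.4, 21.7 and 23.3 CPM in the WT libraries and at 22.8, 22.8 and 37.1 CPM in the KO libraries. The groups overlapped, since 2 of the 3 KO libraries lay below the highest WT library and only KO replicate 3 stood above it. The WT mean was 21.2 ± 2.49 CPM (SD, n = 3) and the KO mean 27.6 ± 8.25, so that the log2 fold change was 0.38 (95% interval from -0.14 to 0.91, edgeR adjusted p = 0.353). Without KO replicate 3, the library with the hepatocyte markers, it was 0.11 (edgeR adjusted p = 0.72).

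Ptch1, the Hedgehog receptor (chromosome 13, 63508328 to 63573598, minus strand), was at 101, 99.8 and 78.5 CPM in WT and at 114, 129 and 125 CPM in KO. The groups did not overlap, the lowest KO library being above the highest WT library. The WT mean was 93.1 ± 12.6 CPM (SD, n = 3) and the KO mean 123 ± 7.79. On the log2 scale the difference was 0.40 (SE 0.12, 95% interval from 0.10 to 0.69), which did not pass over all loci (edgeR adjusted p = 0.137). It lay between 0.29, without WT replicate 3, and 0.47, without WT replicate 2.

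Gli1, the transcription factor whose RNA is a common readout of Hedgehog activity (chromosome 10, 127329882 to 127341974, minus strand), had the fewest reads of the 10 genes. Its counts were 480, 613 and 322 in WT and 517, 440 and 937 in KO, so that the largest counting error of a library was 5.57% (1 over the square root of the count). These correspond to 4.74, 4.75 and 4.01 CPM in WT and 4.68, 5.78 and 7.24 CPM in KO. The groups overlapped, with KO replicate 1 below 2 of the WT libraries and KO replicate 3 the highest. Its log2 fold change was 0.39 (95% interval from -0.09 to 0.87, edgeR adjusted p = 0.305), and 0.21 without KO replicate 3.

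Wnt4, the Wnt ligand of the zona glomerulosa (chromosome 4, 137277489 to 137299726, plus strand), had the most reads of the 10 genes in every library. It was at 143, 141 and 173 CPM in WT and at 194, 153 and 218 CPM in KO, and KO replicate 2 fell within the WT range. The WT mean was 152 ± 17.4 CPM (SD, n = 3) and the KO mean 188 ± 32.5. Their log2 fold change of 0.31 (95% interval from -0.07 to 0.68) did not pass (edgeR adjusted p = 0.30), and it was 0.19 without KO replicate 3.

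Rspo3, the R-spondin of the capsule (chromosome 10, 29452416 to 29535867, minus strand), was at 41.7, 22.5 and 19.4 CPM in WT and at 22.1, 20.8 and 24.3 CPM in KO. WT replicate 1 stood apart from the other 5 libraries, which lay between 19.4 and 24.3 CPM. The WT mean of 27.8 ± 12.1 CPM and the KO mean of 22.4 ± 1.77 (SD, n = 3) gave a log2 fold change of -0.31 (95% interval from -1.01 to 0.39, edgeR adjusted p = 0.564). Without WT replicate 1 the sign turned and the log2 fold change was 0.10 (edgeR adjusted p = 0.685), and without WT replicate 3 it was -0.52.

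Lgr5, a receptor of R-spondins (chromosome 10, 115450311 to 115587780, minus strand), showed the largest difference among the 10 genes. It was at 75.6, 111 and 70 CPM in WT and at 132, 151 and 136 CPM in KO, with no overlap between the groups. WT replicate 2 was the WT library nearest to the KO range. The WT mean was 85.5 ± 22.2 CPM and the KO mean 139.8 ± 10.3 (SD, n = 3), with a log2 fold change of 0.71 (SE 0.19, 95% interval from 0.26 to 1.16). This is a 1.63-fold difference that did not pass over all loci with edgeR (adjusted p = 0.103), while DESeq2 gave an adjusted p of 0.0204 and limma-voom with sample quality weights 0.0351. Without WT replicate 2, edgeR called Lgr5 (log2 fold change 0.96, adjusted p = 0.0233), in a fit that called 2.95% of loci, and leaving out any other library left it uncalled (adjusted p up to 0.258).

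Znrf3, the ubiquitin ligase that removes Frizzled receptors (chromosome 11, 5276324 to 5444847, minus strand), was at 37.4, 66.8 and 56.9 CPM in WT and at 59.0, 40.7 and 63.9 CPM in KO. Both groups spanned nearly the same range. At 0.02 its log2 fold change had a 95% interval from -0.59 to 0.64 (edgeR adjusted p = 0.969), which includes a difference as large as that of Axin2 in either direction. The sign depended on the libraries, from -0.18 without WT replicate 1 to 0.23 without WT replicate 2, and was also negative without KO replicate 1 (-0.04) or KO replicate 3 (-0.11).

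Axin2, a scaffold of the beta-catenin destruction complex and a widely used Wnt readout (chromosome 11, 108917852 to 108950783, plus strand), was at 28.9, 52.6 and 34.6 CPM in WT and at 63.0, 51.3 and 58.4 CPM in KO. KO replicate 2 lay just under WT replicate 2, and the other KO libraries lay above all WT libraries. The WT mean was 38.7 ± 12.3 CPM and the KO mean 57.5 ± 5.88 (SD, n = 3), with a log2 fold change of 0.57 (95% interval from 0.02 to 1.12, edgeR adjusted p = 0.211). Without WT replicate 2 it was 0.88 and was called (edgeR adjusted p = 0.0430), and without WT replicate 1 it was 0.40 (edgeR adjusted p = 0.328). WT replicate 2 had the highest WT level of both Axin2 and Lgr5.

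Lef1, a transcription factor that works with beta-catenin (chromosome 3, 131109619 to 131224356, plus strand), was at 19.2, 20.0 and 30.1 CPM in WT and at 29.4, 22.2 and 30.2 CPM in KO. WT replicate 3 lay among the KO libraries. Lef1 had a log2 fold change of 0.24 (95% interval from -0.27 to 0.76, edgeR adjusted p = 0.542). It was 0.48 without WT replicate 3, 0.37 without KO replicate 2, and from 0.12 to 0.18 without any 1 of the other libraries.

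The promoters of Ptch1, Axin2 and Lef1 are shown because the first 2 had an unadjusted p under 0.05 and the third was the 1 member with a motif match. RefSeq's GRCm38.p6 table held entries for 4 of the 10 genes (Lef1, Wnt4, Axin2 and Ptch1) with 7 starts in all. Each window runs from 250 bases before to 50 bases after a start and is written 5′ to 3′ on the gene's strand. Both strands were searched for the TCF/LEF core CTTTGA and for the GLI site GACCACCCA, with its first 8 bases, GACCACCC, counted separately. The Ptch1 window (chr13:63565686-63565985, minus strand) and the Axin2 window (chr11:108920099-108920398, plus strand) held none of these motifs. The Lef1 window (chr3:131156044-131156343, plus strand), at the most downstream of the Lef1 starts, held the TCF/LEF core at 2 places on the opposite strand, shown in capitals.
Ptch1: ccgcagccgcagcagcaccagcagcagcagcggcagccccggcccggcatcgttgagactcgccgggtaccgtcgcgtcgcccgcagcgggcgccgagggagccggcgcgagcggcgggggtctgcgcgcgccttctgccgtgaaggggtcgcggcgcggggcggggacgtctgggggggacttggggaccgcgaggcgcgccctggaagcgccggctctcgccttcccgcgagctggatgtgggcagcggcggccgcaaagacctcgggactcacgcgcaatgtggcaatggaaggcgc
Axin2: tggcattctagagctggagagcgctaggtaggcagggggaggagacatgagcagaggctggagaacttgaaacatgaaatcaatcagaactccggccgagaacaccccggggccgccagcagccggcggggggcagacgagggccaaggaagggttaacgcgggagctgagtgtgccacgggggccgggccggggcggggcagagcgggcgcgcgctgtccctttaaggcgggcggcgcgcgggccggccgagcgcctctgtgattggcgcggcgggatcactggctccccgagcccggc
Lef1: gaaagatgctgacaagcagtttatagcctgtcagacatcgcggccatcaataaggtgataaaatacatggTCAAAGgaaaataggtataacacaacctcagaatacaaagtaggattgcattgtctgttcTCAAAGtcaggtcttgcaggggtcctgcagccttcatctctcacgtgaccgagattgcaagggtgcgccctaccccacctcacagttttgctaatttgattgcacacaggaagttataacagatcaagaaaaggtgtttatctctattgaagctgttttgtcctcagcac

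Among all 32851 promoter windows of that table, 16% held the TCF/LEF core, 0.253% the GLI site of 9 bases and 0.807% its first 8 bases. A match is a description of letters and no match says only that they are not in this window. The 3 other Lef1 windows and the Wnt4 window held no match either. The Ptch1, Axin2 and Wnt4 windows were rich in G and C, at 76.3%, 70% and 84.3% against a median of 52.7% over all windows, while the Lef1 window shown was at 43.7%.

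Apcdd1, a membrane-bound inhibitor of Wnt signalling (chromosome 18, 62922231 to 62961179, plus strand), was the steadiest of the 10 genes in KO. It was at 23.4, 22.1 and 27.8 CPM in WT and at 22.4, 24.5 and 23.8 CPM in KO, and the KO libraries lay within the WT range. Its log2 fold change was -0.05 with a 95% interval from -0.33 to 0.22 (edgeR adjusted p = 0.826). It turned to 0.047 without WT replicate 3, to 0.18 with total counts alone and to 0.14 with equal counts of Rn7sk, the 7SK RNA to which a part of the authors' deposited log2 values was scaled.

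**Figure D2:**
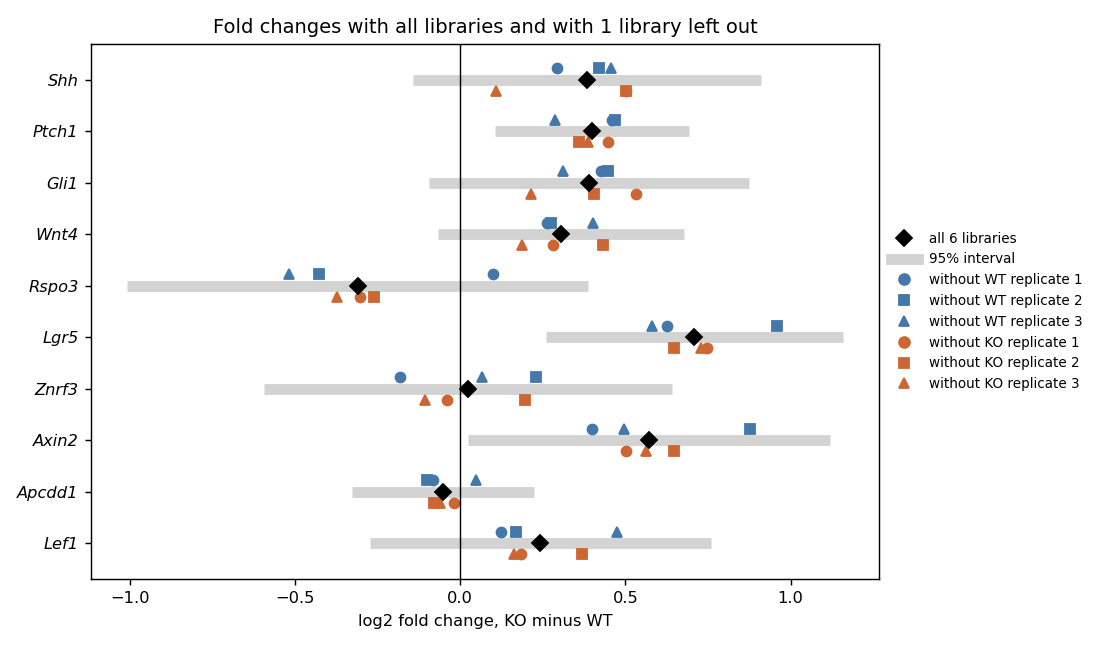
The horizontal axis is the log2 fold change, KO minus WT, of each of the 10 genes. Diamonds are the values with all 6 libraries, grey bars their 95% intervals, and coloured symbols the values with 1 library left out, which for Rspo3 cross 0 without WT replicate 1 (0.10) and for Lgr5 reach 0.96 without WT replicate 2.

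The spread between libraries was wider in WT than in KO for 7 of the 10 genes, measured as the SD in percent of the mean, and 62.1% of all tested loci also had the wider spread in WT. For Rspo3 it was 43.4% in WT and 7.88% in KO, for Axin2 31.9% and 10.2%, and for Lgr5 26% and 7.36%. Shh, Gli1 and Wnt4 went the other way, with 11.8%, 9.36% and 11.4% in WT and 29.9%, 21.8% and 17.3% in KO. For these 3 genes KO replicate 3 was the highest of the KO libraries, as it also was for Rspo3, Znrf3 and Lef1, whose spread was narrower in KO. WT replicate 1 had the lowest WT value of Shh, Znrf3, Axin2 and Lef1 and the highest of Rspo3 and Ptch1.

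Levels of different genes were compared only per length, as CPM per kilobase (kb) of the deposited transcript length. In WT, Wnt4 led with 36.4 ± 4.16 CPM per kb (SD, n = 3), 4.03 times the next gene, and its range did not overlap that of Rspo3. Rspo3 (9.01 ± 3.91), Lgr5 (8.33 ± 2.17), Shh (7.43 ± 0.874), Axin2 (6.88 ± 2.19) and Znrf3 (6.80 ± 1.90) followed, and each overlapped its neighbour in the order. Ptch1 stood at 4.09 ± 0.554, Lef1 at 2.61 ± 0.684, Apcdd1 at 1.90 ± 0.232 and Gli1 at 0.901 ± 0.0844 CPM per kb, with no overlap between neighbours from Znrf3 down. In KO, Lgr5 (13.6 ± 1.00) and Axin2 (10.2 ± 1.05) came next after Wnt4 (44.9 ± 7.75), and Rspo3 was at 7.26 ± 0.572. The level of Ptch1 depends on the length used. The deposited 22731 bases, which include 4 transcripts assembled by StringTie, give 4.09 CPM per kb in WT, and the 14185 bases of its GENCODE exons give 6.56 ± 0.888. Its place in the order stayed 7 in WT and went from 7 to 5 in KO.

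**Figure D3:**
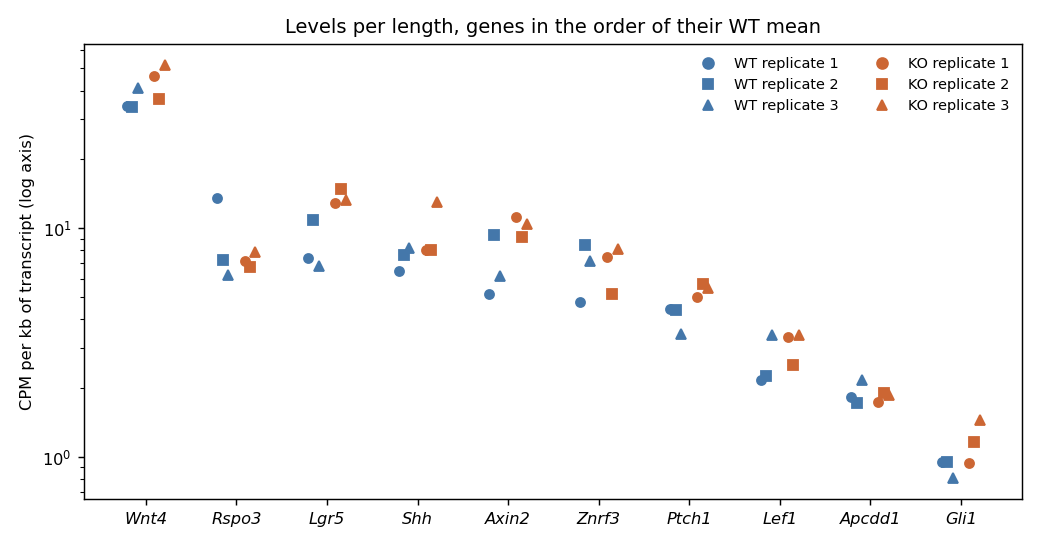
Points are CPM per kb of deposited transcript length (log axis) in each library for the 10 genes, ordered by WT mean. Wnt4 lies above the other genes in every library, Gli1 is lowest with a WT mean of 0.901, and Rspo3, Lgr5, Shh, Axin2 and Znrf3 share 1 range in WT.

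The wider pathways were described by 11 lists of Hedgehog and Wnt genes, 107 tested genes in all and 97 without the 10. Of these 97, 2 were called higher and none lower, where 1.41% of all tested loci were called higher and 0.431% lower. Their median log2 fold change was -0.07, with 39 above 0 and 58 below. The p before adjustment was under 0.05 for 20 of them (20.6%, beside 22.2% of all loci). With total counts alone or equal Rn7sk counts the median of all tested loci rises to 0.22 or 0.19, and the medians of all 11 lists rise too.

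The first called gene was Wnt9a, a Wnt ligand, which was at 2.04, 2.18 and 2.12 CPM in WT and at 7.16, 10.6 and 9.86 CPM in KO. It was the 1 gene called of 17 tested Wnt ligands and secretion factors. It rose 4.34-fold, with means of 2.12 ± 0.0696 CPM for WT and 9.19 ± 1.8 CPM for KO (SD, n = 3) and a log2 fold change of 2.12 with SE 0.19 (edgeR adjusted p = 0.0149). Its groups did not overlap. The call was lost without WT replicate 3, KO replicate 2 or KO replicate 3 (edgeR adjusted p = 0.0919, 0.0799 and 0.0595). Those fits called 20 of 22569, 22 of 22215 and 37 of 21690 tested loci. Log2 fold changes of Wnt9a ran from 2.01 to 2.27 over the 6 libraries left out in turn. Of the 17 genes 9 were above 0, with a median log2 fold change of 0.04. In 3 of the 17 the KO libraries all lay above the WT libraries, and in 3 all below. Over all tested loci these shares were 16.3% and 14.2%. The 3 below were Wls (-0.47), Wnt2b (-0.44) and Wnt5b (-0.85), named after their values were seen. None of them was called (edgeR adjusted p = 0.116, 0.0998 and 0.106). Wnt5b was low, with means of 1.11 CPM in WT and 0.62 in KO. Wnt16, named here after its values were seen, was under 1 CPM throughout, at 0.109, 0.139 and 0.0873 CPM in WT and at 0.661, 0.354 and 0.526 CPM in KO. With a log2 fold change of 2.18 it was not called (edgeR adjusted p = 0.0510). Wnt11, also above in all KO libraries and named after its values were seen, had low means of 0.25 CPM in WT and 0.70 in KO. Its log2 fold change was 1.49, and it was not called (edgeR adjusted p = 0.084). Wnt3a and Wnt7a had no counts, and Wnt1 and Wnt8a were also not tested.

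The other called gene was Fzd5, a Frizzled receptor, and the 1 called of 14 tested Wnt receptors. It was at 29.0, 32.0 and 33.5 CPM in WT and at 56.4, 47.9 and 55.3 CPM in KO, without overlap. It rose 1.69-fold, and its log2 fold change was 0.75 with SE 0.11 (edgeR adjusted p = 0.0328). The call was kept when WT replicate 2 was left out (edgeR adjusted p = 0.0429) and lost without WT replicate 1 (0.0508), WT replicate 3 (0.121), KO replicate 1 (0.149), KO replicate 2 (0.0912) or KO replicate 3 (0.11). The fit that kept it called 644 of 21852 tested loci. Those that lost it called 383 of 22000, 20 of 22569, 15 of 22326, 22 of 22215 and 37 of 21690, in the same order. Of the 14 receptors 6 were above 0, with a median of -0.10. The KO libraries all lay above the WT libraries in 3 and all below in 5, beside 16.3% and 14.2% of all tested loci. DESeq2 called 1 of the 14 higher and 3 lower, where it called 9.98% of loci in either direction. With limma-voom and sample quality weights 2 were called higher and 2 lower, where it called 7.15% of loci.

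No gene of the Hedgehog lists was called. Of 6 tested ligands and factors of ligand release 3 had log2 fold changes above 0, with Scube1 at 0.45 and Scube3 at 0.65 (edgeR adjusted p = 0.10 and 0.146), proteins that help release Hedgehog from cells, beside Shh. Of 8 receptors and coreceptors 4 were above 0. Hhip, a decoy receptor that is itself a Hedgehog target, was at 27.4, 28.8 and 21.2 CPM in WT and at 36.7, 42.3 and 39.2 CPM in KO. Its groups did not overlap, and its log2 fold change was 0.61 (edgeR adjusted p = 0.0794). It was called by DESeq2 (adjusted p = 0.0153), by limma-voom with sample quality weights (0.0354) and by edgeR with equal Rn7sk counts (0.0431). The coreceptor Gas1 had a log2 fold change of -0.29 (edgeR adjusted p = 0.285). Of 9 transducers 5 were above 0, with Spop, an adaptor of cullin 3 ligases, at -0.37, Gli1 at 0.39 and Kif7 at 0.34 (edgeR adjusted p = 0.156, 0.305 and 0.309). Of 10 Hedgehog targets 4 were above 0, and the median was -0.06, with Hhip, Ptch1 and Foxl1 (-0.91, edgeR adjusted p = 0.258) having the smallest p. Foxl1 was low, with means of 0.49 CPM in WT and 0.26 in KO. Over all settings tried, the median of the Hedgehog targets ran from -0.20 without KO replicate 3 to 0.17 with total counts alone.

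Nor was any gene called in the remaining Wnt lists. In the R-spondin module 4 of 8 tested genes were above 0, with Lgr5, Rspo1 (-0.54, edgeR adjusted p = 0.293) and Lgr6 (0.38, 0.411) having the smallest p. Lgr6 was low, with means of 0.62 CPM in WT and 0.80 in KO. In the destruction complex and its transducers 4 of 15 were above 0, with Ctnnb1, beta-catenin itself, at -0.45 (edgeR adjusted p = 0.134), Axin2 at 0.57 and Dvl1 at -0.22 (0.290). The 4 TCF/LEF factors lay between -0.07 for Tcf7l1 and 0.24 for Lef1. Of 13 tested secreted and membrane inhibitors 4 were above 0, with Dkk3 at 0.30 (edgeR adjusted p = 0.271), Draxin at -0.91 (0.288) and Sfrp4 at -0.58 (0.394). Levels were low for Draxin, with means of 0.66 CPM in WT and 0.35 in KO. Of 16 tested Wnt targets 10 were above 0 with a median of 0.09. Tnfrsf19 at -0.41 and Nkd2 at -0.56 (edgeR adjusted p = 0.138 and 0.201) went the other way from Lgr5.

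**Figure D4:**
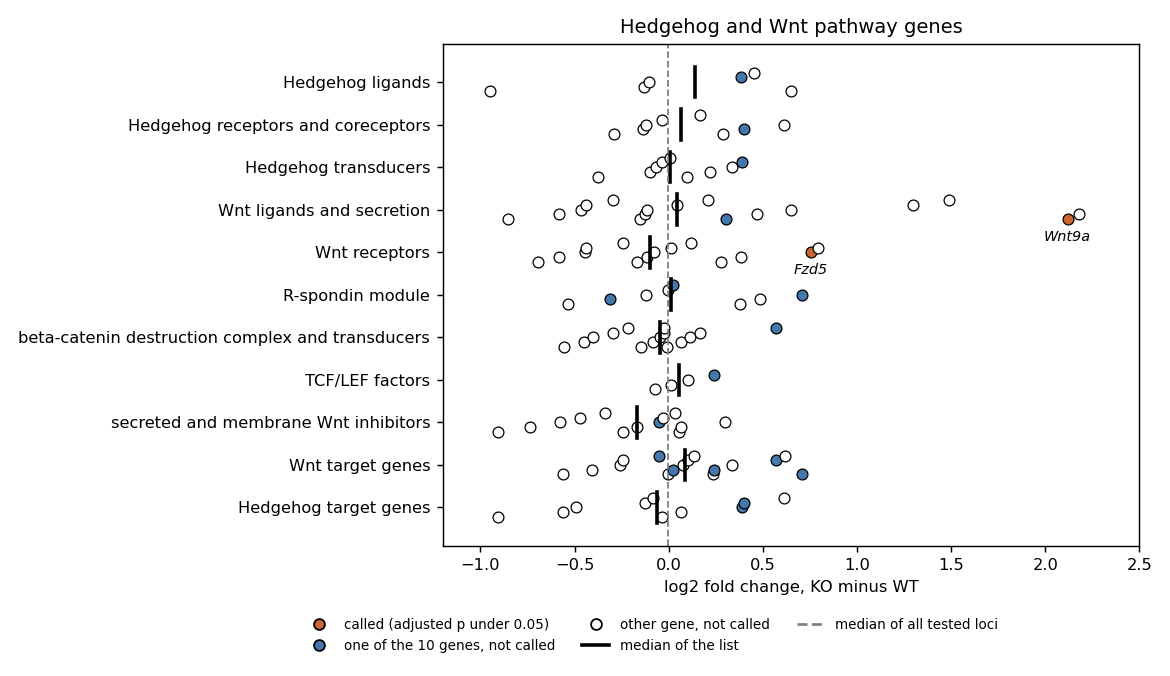
Each circle is a tested gene, placed by its log2 fold change (KO minus WT) in the rows of 11 Hedgehog and Wnt lists, with a black bar at the median of the list and a dashed line at the median of all tested loci (-0.0063). The called genes are Wnt9a at 2.12 and Fzd5 at 0.75, and a gene of several lists is drawn in each.

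The summed levels of chromaffin, steroidogenic and endothelial markers did not overlap between the groups, and those of the other marker lists did. The 11 chromaffin cell markers summed to 1980 to 2805 CPM in WT and 4026 to 4441 in KO, and 4 of 11 were called higher, beside 1.41% of all tested loci, among them Chga, Dbh and Hand2 with log2 fold changes from 0.79 to 0.93. None of the 11 was called when WT replicate 1, WT replicate 3 or any 1 KO library was left out. Without WT replicate 1 or 3, 383 of 22000 and 20 of 22569 tested loci were called. Without KO replicate 1, 2 or 3, 15 of 22326, 22 of 22215 and 37 of 21690 were. Of the 11 markers 8 were called without WT replicate 2 and 10 with DESeq2, where 2.95% and 9.98% of loci were called. All 11 were above 0 in each of these fits. The 11 capsule and stroma markers summed to 425 to 565 CPM in WT and 342 to 437 in KO, with 9 of 11 below 0 and none called. With total counts alone 7 of these 11 were above 0, and with equal Rn7sk counts 6 were. Among them was Dcn, decorin of connective tissue, at -0.73 (edgeR adjusted p = 0.196). Of the zona glomerulosa markers, whose 8 loci summed to 2223 to 3365 CPM in WT and 2266 to 2446 in KO, 5 of 7 tested were above 0. Grik2 was at 0.68, the adaptor Dab2 at 0.42 and the potassium channel Kcnk3 at -1.23 (edgeR adjusted p = 0.080, 0.101 and 0.168). Kcnk3 was at 809, 2000 and 641 CPM in WT and at 491, 502 and 481 CPM in KO, so that WT replicate 2 led the sum of this list. The steroidogenic genes had a median log2 fold change of -0.23, which was 0.01 with total counts alone. Star, which carries cholesterol into mitochondria, was at -1.10 and Cyp11a1, the side-chain cleavage enzyme, at -0.58 (edgeR adjusted p = 0.103 and 0.133), and the groups did not overlap for either gene. The 7 endothelial markers summed to 750 to 877 CPM in WT and 550 to 680 in KO. All 7 were below 0, with a median log2 fold change of -0.39, which was -0.17 with total counts alone. In 5 of the 7 the KO libraries all lay below the WT libraries, beside 14.2% of all tested loci, and none was called. No marker of the zona fasciculata (4 tested), Schwann cell (8), macrophage (7), adipocyte (6) or hepatocyte (4) lists was called either. Schwann cell markers summed to 19.7 to 30.1 CPM in WT and 21.7 to 30.1 in KO, and Erbb3, at a log2 fold change of 0.67, made up 60.8% of the sum. Of these 8 markers 6 were below 0, with a median of -0.69. In 5 of the 8 the KO libraries all lay below the WT libraries, beside 14.2% of all tested loci. Among these, S100b (means of 0.87 CPM in WT and 0.44 in KO) and Fabp7 (0.467 and 0.193) had low levels. Macrophage markers summed to 164 to 430 CPM in WT and 157 to 203 in KO. Adipocyte markers summed to 154 to 231 CPM in WT and 123 to 168 in KO, and zona fasciculata markers to 919 to 2247 and 1136 to 1331. The 6 kidney markers summed to at most 1.27 CPM in any library, with Umod and Slc12a1 at 0. The part of these shifts in the results for the 10 genes was not tested.

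Relative to the summed counts of the capsule and stroma markers, all 10 genes had a higher mean log2 ratio in KO, with a median difference of 0.65 against 0.32 over all tested loci. In 6 of the 10 (Shh, Gli1, Ptch1, Wnt4, Axin2 and Lgr5) the groups did not overlap and KO lay above, beside 27.4% of all tested loci. Ptch1 was at 218, 177 and 185 counts per 1000 marker counts in WT and at 334, 344 and 285 in KO. Gli1 was at 10.3, 8.41 and 9.44 in WT and at 13.7, 15.4 and 16.6 in KO on the same scale. The KO libraries of both genes stood above the WT libraries on this scale, which moves up wherever the marker sum moves down.

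Relative to the steroidogenic genes 8 of the 10 did not overlap, all but Rspo3 and Znrf3, beside 44.8% of all tested loci, and the median difference was 0.90 against 0.57 over all loci. Relative to the zona glomerulosa markers, a scale added after the values were seen, Ptch1, Axin2 and Lgr5 did not overlap, beside 18.9% of all tested loci. Lgr5 was there at 34.0, 33.0 and 30.5 counts per 1000 marker counts in WT and at 54, 66.8 and 58.9 in KO. This scale leans on 1 marker, since Kcnk3 was at 2000 CPM of a marker sum of 3365 CPM in WT replicate 2. In WT replicates 1 and 3 Kcnk3 was at 809 and 641 CPM. Its height in WT replicate 2 lowers every ratio of that library, which had the highest WT CPM of Axin2 and Lgr5. Ratios without Kcnk3 were not computed, so the lack of overlap may rest on this marker. Rspo3, the 1 gene with a negative difference on that scale (-0.09), overlapped between the groups on all 3 scales, as did Znrf3. These ratios carry no test, since 3 samples against 3 cannot go below an exact permutation p of 0.10.

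**Figure D5:**
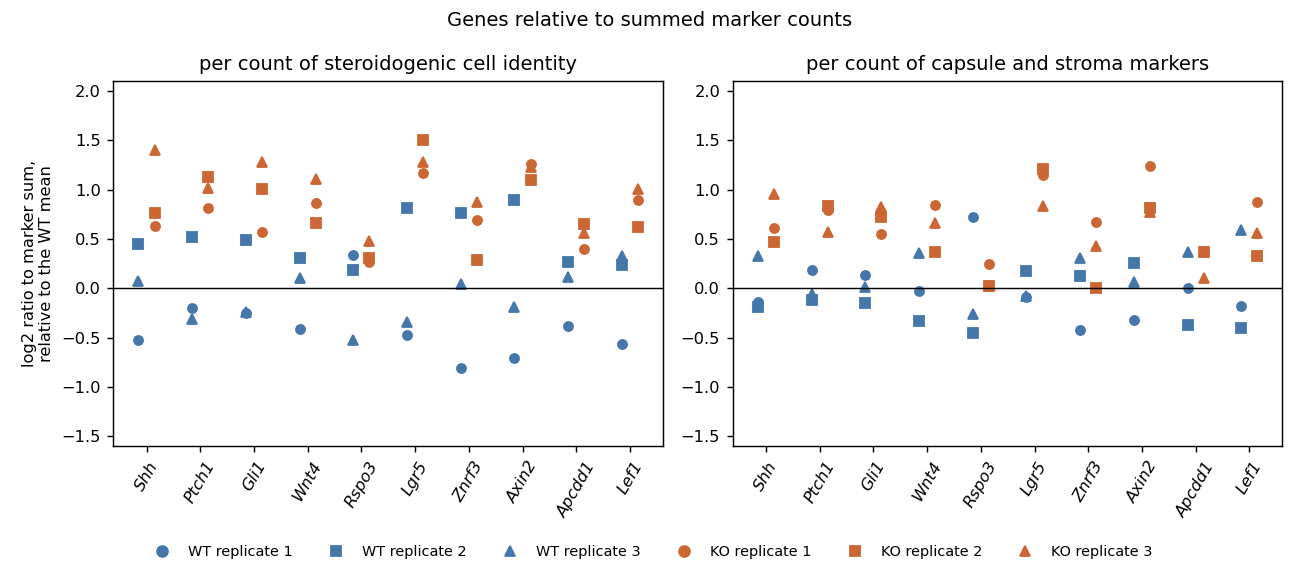
Each point is 1 library's log2 ratio of a gene's count to the summed counts of the steroidogenic genes (left) or of the capsule and stroma markers (right), set relative to the WT mean of that gene. KO libraries lie above all WT libraries for 8 genes on the left and 6 on the right, while Rspo3 and Znrf3 overlap in both panels.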

How the data were processed

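The submitters' processing notes name the genome GRCm38 and the tools STAR, Trimmomatic, StringTie, Picard and edgeR. For their versions, the counting program and its strand setting, the sources used here give nothing, and without strand the reads of overlapping antisense genes cannot be told apart. The deposited table holds raw read counts per locus, per the file headers, and transcript lengths in bases. The log2 CPM values that the authors also deposited, per library and per group, were not used. Loci without a gene name (6596, 1.39% to 2.04% of the counts of a library) were left out of library sizes and tests. Replicates of a group differed by far more than sampling noise.

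In R 4.3.3, edgeR 4.0.16 was used to filter (filterByExpr), to compute TMM factors and to run its two-sided quasi-likelihood test (robust glmQLFit, then glmQLFTest). Benjamini-Hochberg adjustment covered 21358 loci, with calls at an adjusted p under 0.05. The standard error (SE) is the log2 fold change over the square root of F. The test was tested on simulated data. The settings tried beside these were equal Rn7sk counts, total counts alone, RLE size factors, other filters, DESeq2 1.42.0, limma-voom 3.58.1 with sample quality weights, a replicate block, unnamed loci kept, and each library left out.

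The 10 genes and the 22 lists were chosen with earlier results of these data known. Named were the 10 genes, Armc5, the called genes or otherwise up to 3 with the smallest p of each pathway list, and up to 3 with the smallest p of each marker list. Wnt16, Wnt11, Wls, Wnt2b, Wnt5b, Erbb3, S100b and Fabp7 were named after their values were seen. A locus that merges a listed gene with another protein-coding gene was left out of a list, as for Dhh, Lrp5, Gsk3a, Agtr1b, Hsd3b1, Hsd3b6 and Cyp11b1. Lists carry no set test. Coordinates are those of the deposited table on GRCm38.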

Additional observations from a re-analysis of the deposited data

How the results depend on the processing

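Of 160 values of the 10 genes under other settings, 146 kept their direction and their side of the threshold, 4 became called and 10 turned sign. The number of loci called was 393 and became 711 with equal Rn7sk counts (94.1% of them higher, against 76.6%), 674 with total counts alone (94.8% higher), 612 with at least 1 CPM in 3 libraries, 2155 with DESeq2 and 1527 with limma-voom. Without KO replicate 1, 2 or 3 it was 15, 22 or 37, without WT replicate 1, 2 or 3 it was 383 (53% higher), 644 or 20. Of the 10 genes, none was called by edgeR with all 6 libraries, 1 by DESeq2 and 1 by limma-voom (Lgr5, 0.70 and 0.83), and 0 to 2 with 1 library left out. The log2 fold change with 1 library left out ran from 0.58 to 0.96 for Lgr5, 0.40 to 0.88 for Axin2, -0.52 to 0.10 for Rspo3, -0.18 to 0.23 for Znrf3 and -0.10 to 0.047 for Apcdd1. Apcdd1 turned to 0.14 when Rn7sk counts were set equal and to 0.18 by total counts, and Znrf3 to -0.000596 with unnamed loci kept. Without WT replicate 1 and KO replicate 3, chosen after seeing the data, 16 loci were called, Axin2 was at 0.39, Rspo3 at 0.039 and Znrf3 at -0.31. The cause of these changes was not tested. Each fit with 1 library left out has fewer residual degrees of freedom than the main fit, and these fits called from 15 to 644 loci.

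The samples share only a number: deviations of same-numbered samples correlated at -0.0857, 0.0118 and -0.142 across loci, and not every sample correlated best with its own number. With the replicate block 5 loci and 0 of the 10 genes were called, and neither Wnt9a (adjusted p = 0.107), Fzd5 (0.134) nor any chromaffin marker was. The 10 genes had at least 322 counts in a library, and the counting error of each gene was smaller than its spread between libraries in both groups.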

Other observations

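Ratios of counts between pairs of the 10 genes, chosen after their values were seen, are given without a test. Of 9 ratios computed, 3 did not overlap between the groups, and of all 45 pairs of the 10 genes 8 did not (17.8%). Ratios between pairs of other loci were not computed, so these counts have no share over all loci beside them. Gli1 to Shh was 0.216 ± 0.0426 for WT and 0.218 ± 0.0310 for KO (SD, n = 3), and Ptch1 to Gli1 was 20.6 ± 0.924 and 21.3 ± 3.68, with overlapping groups. Axin2 to Znrf3, both targets of beta-catenin that dampen it, was 0.774, 0.788 and 0.608 in the WT libraries and 1.07, 1.26 and 0.914 in the KO libraries, without overlap. The Lgr5 to Znrf3 ratio was 2.02, 1.66 and 1.23 in WT and 2.24, 3.72 and 2.13 in KO, also without overlap, and Lgr5 to Rspo3 was 1.81, 4.94 and 3.62 in WT and 5.97, 7.27 and 5.58 in KO, again without overlap. Ptch1 to Shh, Axin2 to Wnt4, Wnt4 to Rspo3 and Lgr5 to Axin2 overlapped. Axin2 and Znrf3 both had their lowest WT level in replicate 1 and their highest in replicate 2.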
